A study of Mus musculus with 20 samples.

Results

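Saa3, Lcn2, Hp and Marco are 4 genes of the acute-phase and scavenger response, and they were followed across whole SCCVII tumors of mice given checkpoint antibodies, APG-157 or both. All 4 were found in the count table, among 54309 genes, as ENSMUSG00000040026.9 (Saa3), ENSMUSG00000026822.15 (Lcn2), ENSMUSG00000031722.11 (Hp) and ENSMUSG00000026390.8 (Marco), and all 4 passed the filter on low counts that left 19567 genes for testing. The genes were selected with earlier results on these same libraries known. Saa3 and Marco had been picked out on their difference between control tumors and those given both checkpoint antibodies, so that difference is given as a description with no test, and the values that chose Lcn2 and Hp are not given in the sources used here. The 8 tested comparisons with control share the control libraries with that choice, so they are not independent of it.

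SCCVII is a mouse squamous cell carcinoma line that was injected under the skin of immunocompetent C3H/HeOuJ mice. The 20 libraries were 2 replicates, labelled A and B, of each of 10 groups. Control mice were injected with saline, or with IgG in the depletion experiment. APG-157, a botanical drug that holds curcumin and other molecules of Curcuma longa, was given in the food, and the antibodies were injected into the abdominal cavity. Single agents were anti-CTLA-4, anti-PD-1, anti-CD8 and APG-157. APG-157 + anti-PD-1 is called here the PD-1 combination, and APG-157 + anti-CTLA-4 is called the CTLA-4 combination. Dual checkpoint blockade paired both checkpoint antibodies, anti-PD-1 + anti-CTLA-4, without the drug, and the triple combination added APG-157 to them. The CD8-depleted combination was the CTLA-4 combination given together with anti-CD8. PD-1 and CTLA-4 are inhibitory receptors of T cells, and the CD8 antibody removes cytotoxic T cells. CD8 depletion was a mouse experiment of its own, and the labels do not say from which experiment the control libraries or those of the CTLA-4 combination came. They also do not say whether replicates A and B were separate tumors, so p-values reflect only how far libraries of a group differ, which may be technical.

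The acute-phase response is the change in secreted proteins that follows infection, injury or a tumor. Interleukin-6 and interleukin-1 act through STAT3, C/EBP factors and NF-kappaB to raise serum amyloid A, haptoglobin, lipocalin-2 and other proteins, in the liver and also in macrophages, adipocytes and epithelium. Saa3 is a serum amyloid A made outside the liver, Lcn2 (lipocalin-2) withholds iron from bacteria by binding their siderophores, and Hp (haptoglobin) binds free hemoglobin. Marco is a class A scavenger receptor of macrophages that takes up bacteria and modified lipoproteins.

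Library totals ran from 43.9 to 72.1 M counts, with a median of 54.9 M. Levels are counts per M counts (CPM) after TMM scaling, and 3 counts in a library correspond to 0.0403 to 0.0708 CPM. Replicate B of the CD8-depleted combination stood apart from the rest. Its 12 adipocyte markers summed to 4830 CPM, against 25.9 to 137 CPM in the other 19 libraries, its epithelial adhesion gene Epcam was at 218 CPM against at most 0.608 CPM elsewhere, and its macrophage markers had the lowest sum, 3156 CPM. The replicates of the CTLA-4 combination were unusually alike, with a biological coefficient of variation of 4.23% between them, against 20.9% to 68.3% in the other groups, although they differed by more than sampling noise. Cd8a was at 0.121 to 0.381 CPM in the 4 libraries given the CD8 antibody and at 0.608 CPM or more in the other 16. Of the keratins, Krt8 and Krt18 averaged 784 and 942 CPM, while Krt5, a marker of stratified squamous epithelium, had 0 counts in 16 of 20 libraries.

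Promoter sequences are shown for Saa3, Lcn2 and Marco. The promoter source used here held no entry for Hp. Each run covers 250 bases before to 50 bases after the annotated start in RefSeq (build GRCm38.p6), and capitals mark matches to 3 short motifs searched on both strands. The windows are chr7:46715627-46715926 for Saa3, chr2:32387690-32387989 for Lcn2 and chr1:120504975-120505274 for Marco, all on the minus strand.
Saa3: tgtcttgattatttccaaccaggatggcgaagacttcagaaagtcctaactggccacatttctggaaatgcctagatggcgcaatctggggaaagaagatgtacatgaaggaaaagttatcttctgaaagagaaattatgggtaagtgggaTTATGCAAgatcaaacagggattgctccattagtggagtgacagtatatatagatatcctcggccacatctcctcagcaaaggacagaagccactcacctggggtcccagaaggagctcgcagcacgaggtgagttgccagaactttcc
Lcn2: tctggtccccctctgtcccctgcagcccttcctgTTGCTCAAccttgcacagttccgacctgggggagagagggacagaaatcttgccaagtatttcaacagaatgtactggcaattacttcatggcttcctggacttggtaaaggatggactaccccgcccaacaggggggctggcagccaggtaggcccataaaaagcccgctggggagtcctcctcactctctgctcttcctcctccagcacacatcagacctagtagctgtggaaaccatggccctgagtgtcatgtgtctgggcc
Marco: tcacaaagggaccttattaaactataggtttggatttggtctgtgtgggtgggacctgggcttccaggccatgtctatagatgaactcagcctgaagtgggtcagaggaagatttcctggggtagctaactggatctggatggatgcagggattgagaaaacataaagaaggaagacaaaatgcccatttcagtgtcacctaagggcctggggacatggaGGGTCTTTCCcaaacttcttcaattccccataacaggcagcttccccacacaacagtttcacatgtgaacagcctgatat
The C/EBP motif TTGCNNAA had 1 match in Saa3 and 1 in Lcn2, starting at positions -99 and -216 from the annotated start, and it was found in 10.8% of 32851 promoters of this length. The kappaB motif, read as GGG, any 2 bases and TTTCC, had 1 match in Marco, at position -30, and was found in 1.63% of the promoters. The STAT motif TTCNNNGAA, found in 8.3% of the promoters, was in none of the 3 windows. No motif overlapped another in these windows. These are letter matches only, since no binding was measured.

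Saa3 was highest after dual checkpoint blockade, at 19.2 CPM in replicate A and 39.1 CPM in replicate B. Control libraries held 0.610 and 0.311 CPM, the CTLA-4 combination held 0.397 and 0.439 CPM, and anti-CD8 held 0.592 and 0.739 CPM. APG-157 libraries held 1.25 CPM each, anti-PD-1 held 0.454 and 1.17 CPM, anti-CTLA-4 held 1.74 and 1.01 CPM, and the PD-1 combination held 2.30 and 0.126 CPM. The triple combination was split between 14.4 and 1.14 CPM, and the CD8-depleted combination between 1.50 and 10.1 CPM. Both dual blockade libraries thus lay above every other library, and the range of each group below them overlapped that of the next in the order of means. By group mean the order ran from 29.1 ± 14.1 CPM (SD, n = 2) after dual blockade through 7.76 ± 9.36 CPM in the triple combination to 0.418 ± 0.0292 CPM in the CTLA-4 combination. The fitted log2 difference of dual blockade from control was 5.97 (SE 1.45). In a whole tumor, a change in the number of cells of a type and a change in RNA per cell cannot be told apart.

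None of the 8 comparisons of Saa3 with control that were tested reached an adjusted p below 0.05 by edgeR's quasi-likelihood test with Benjamini-Hochberg adjustment over all 19567 genes. Few genes of the whole table were called in this fit either: 0% of the tested genes were called in 6 of these comparisons, 0.0204% (4 genes) in the CTLA-4 combination and 0.0102% (2 genes) in the CD8-depleted combination. At an unadjusted p below 0.05, the comparisons without a called gene held between 121 and 1262 genes. These backgrounds depended on the fit. The CTLA-4 combination gave 379 genes with DESeq2 and 713 when only the compared groups were fitted, and the CD8-depleted combination gave 1677 with DESeq2 and 6632 without its replicate A. The triple combination gave the largest tested Saa3 value, a log2 difference of 4.07 (SE 1.33, edgeR adjusted p = 0.941), and both its libraries lay above both controls. The CD8-depleted combination stood 3.64 above control on the log2 scale (SE 1.31, edgeR adjusted p = 0.188), and 1.70 (SE 1.38) without its replicate B. Saa3 was among the 1677 genes that DESeq2 called in this comparison (DESeq2 adjusted p = 0.0163). Of the 2593 different 31-base stretches in Saa3 transcripts, 7.44% also occur on the same strand in transcripts of 1710 other genes, Saa1 and Saa2 among them, so some reads may be shared between genes. Saa1 and Saa2 stayed at or below 0.0506 and 0.0359 CPM in every library.

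**Figure D1:**
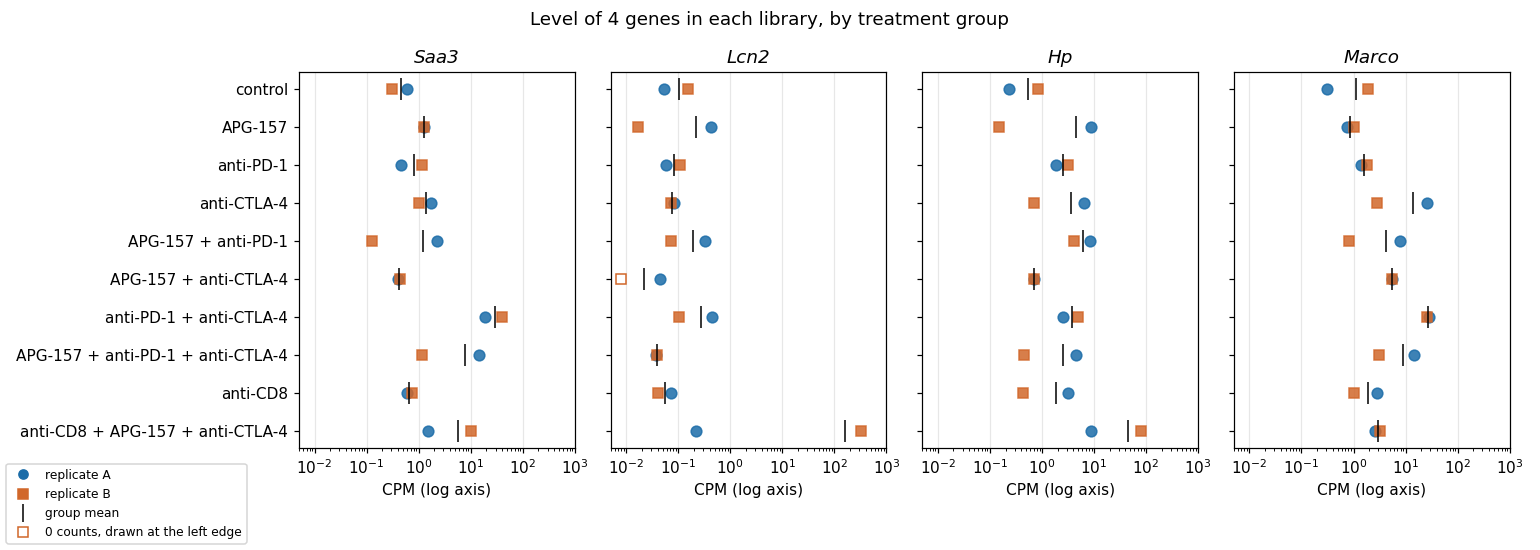
Level of each of the 4 genes in CPM (log axis) by treatment group. Circles are replicate A, squares are replicate B, the black tick is the mean of the 2 libraries, and an open square marks 0 counts. Saa3 and Marco are highest after dual blockade, and Lcn2 and Hp in replicate B of the CD8-depleted combination.

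Lcn2 was near the limit of detection in 19 of the 20 libraries, where it lay between 0 and 0.448 CPM, and reached 323 CPM in replicate B of the CD8-depleted combination. That library held 15295 of the 15424 counts of the gene, and replicate A of the same group held 15 counts, or 0.217 CPM. The ratio between these replicates was 1490 (95% exact binomial interval 903 to 2663, counting error only). The other groups all lay below 0.5 CPM. Next came dual blockade, with 0.448 and 0.104 CPM, APG-157, with 0.430 and 0.0169 CPM, and the PD-1 combination, with 0.321 and 0.0722 CPM. Control libraries held 0.0539 and 0.156 CPM, anti-PD-1 held 0.0593 and 0.110 CPM, anti-CTLA-4 held 0.0820 and 0.0711 CPM, and anti-CD8 held 0.0718 and 0.0403 CPM. Lowest were the triple combination, with 0.0378 and 0.0388 CPM, and the CTLA-4 combination, with 0.0441 CPM in replicate A and 0 counts in replicate B, which allows up to 0.0548 CPM. Apart from the single high library, 15 of these 19 values rest on fewer than 10 counts, which limits their precision. Against control, the CD8-depleted combination had a fitted log2 difference of 10.58 (SE 2.49, edgeR adjusted p = 0.145), and 1.04 (SE 1.44) without its replicate B. DESeq2 did call Lcn2 in this comparison (DESeq2 adjusted p = 5.26e-06), among 1677 of 20535 genes. The difference of dual blockade from control was 1.33 (SE 2.52).

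Hp also had its highest level in replicate B of the CD8-depleted combination, at 79.7 CPM, and it was found in every library, with at least 9 counts. Replicate A of that group held 8.81 CPM, close to replicate A of APG-157 at 8.92 CPM and of the PD-1 combination at 8.46 CPM. Replicate B of those groups held 0.152 and 4.10 CPM. In each of the next 5 groups one library lay above and one below the median of 2.85 CPM over all libraries. Anti-CTLA-4 held 6.52 and 0.711 CPM, the triple combination 4.55 and 0.446 CPM, anti-CD8 3.21 and 0.443 CPM, dual blockade 2.50 and 4.94 CPM, and anti-PD-1 1.88 and 3.20 CPM. Control libraries held 0.233 and 0.856 CPM, and the CTLA-4 combination held 0.692 and 0.713 CPM. Replicates of 1 treatment differed by up to 58.8 times, in the APG-157 group, and below the CD8-depleted combination each group overlapped the next in the order of means. Hp was above both controls in 12 of 18 treated libraries, beside 13 for Saa3, 12 for Marco and 5 for Lcn2. These libraries share the same 2 controls, and the share over all genes was not counted. No comparison with control passed the edgeR test. The log2 difference was 6.34 (SE 1.99, edgeR adjusted p = 0.153) in the CD8-depleted combination and 4.02 (SE 1.94) without its replicate B. In the other 7 tested groups it was 0.37 to 3.53. DESeq2 did call Hp in the CD8-depleted combination against control (DESeq2 adjusted p = 0.00176), among 1677 of 20535 genes. The dual blockade difference was 2.77 (SE 1.72).

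Marco was highest after dual checkpoint blockade, at 28.1 and 26.2 CPM, where the 2 replicates differed little. Replicate A of anti-CTLA-4 was nearly as high, at 25.5 CPM, while replicate B held 2.83 CPM. Group means were intermediate, from 4.29 to 8.96 CPM, where APG-157 accompanied a checkpoint antibody without CD8 depletion. The triple combination held 14.8 and 3.14 CPM, the PD-1 combination held 7.77 and 0.812 CPM, and the CTLA-4 combination held 5.49 and 5.45 CPM. The CD8-depleted combination held 2.56 and 3.24 CPM, anti-CD8 held 2.80 and 1.02 CPM, and anti-PD-1 held 1.38 and 1.81 CPM. Lowest were control, with 0.305 and 1.91 CPM, and APG-157, with 0.735 and 1.01 CPM. Dual blockade thus did not overlap the next group, anti-CTLA-4, in which the libraries differed 9.02 times, and every pair of neighbours below overlapped. All 5 groups given anti-CTLA-4 were above both controls in both libraries, but the choice of Marco had used the control and dual blockade libraries. Replicate A of anti-CD8 and of the PD-1 combination, at 2.80 and 7.77 CPM, also lay above both controls. How many of all genes show such an order was not counted. The dual blockade difference from control was 4.62 (SE 1.28) on the log2 scale. Anti-CTLA-4 alone stood 3.68 above control (SE 1.23, edgeR adjusted p = 0.766), and the triple combination 3.02 (SE 1.20, edgeR adjusted p = 0.941), so neither passed the threshold. No 31-base stretch of Marco or Lcn2 occurs in a transcript of another gene, on either strand.

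The 3 libraries with the highest sums of macrophage markers were among the 4 highest for Marco and were the 3 highest for Saa3. The sum of 12 markers was 9454 and 8711 CPM after dual blockade and 9022 CPM in replicate A of the triple combination, against 3156 to 7670 CPM in the other 17 libraries. It was 6987 CPM in replicate A of anti-CTLA-4, where Marco stood at 25.5 CPM. All 12 markers were detected in every library. The 16 neutrophil markers summed to 45.2 and 52.6 CPM after dual blockade and to 15.3 to 53.7 CPM over all libraries but replicate B of the CD8-depleted combination, and Ly6g had 0 counts in 14 libraries. Over 20 libraries the macrophage sum had r = 0.27 with Saa3 and 0.42 with Marco, and 0.60 and 0.52 over the 19 without that replicate. The neutrophil sum had r = 0.59 with Saa3 and 0.26 with Marco, and 0.77 and 0.63 over the 19. After dual blockade this sum was mostly Csf3r, at 33.1 and 39.0 CPM. S100a8 and S100a9 stayed at or below 2.11 and 0.836 CPM in every library. The squamous epithelium sum, which was mostly Krt8 and Krt18, had r = -0.75 and -0.56, and -0.73 and -0.58 over the 19. The adipocyte sum had r = 0.50 with Saa3 and 0.14 with Marco, and 0.53 and 0.33 over the 19. By rank (Spearman's rho), Saa3 had 0.67 with the adipocyte sum, 0.59 with the neutrophil sum and 0.26 with the macrophage sum. Over the 19 these were 0.64, 0.53 and 0.37. Cd8a, looked at after its values were seen, was highest in the same 5 libraries as Marco: 28.0 and 56.6 CPM after dual blockade, 43.9 CPM in replicate A of the triple combination, 32.2 CPM in replicate A of anti-CTLA-4 and 25.8 CPM in replicate A of the PD-1 combination, against at most 12.2 CPM elsewhere. The part of macrophage, neutrophil, adipocyte, T cell or tumor cell number in the levels of Saa3 and Marco was not tested.

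**Figure D2:**
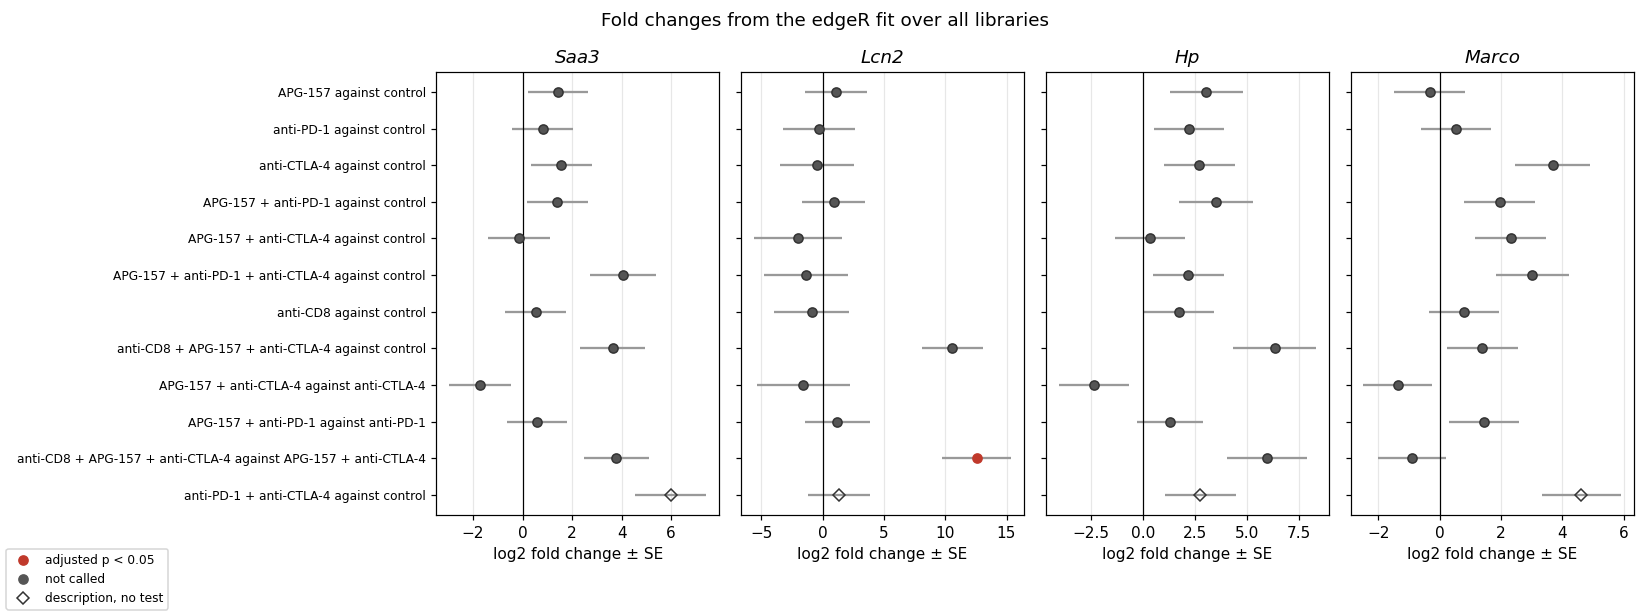
Log2 fold change with its standard error for each gene and comparison, from the fit over all 20 libraries. The filled red point is Lcn2 in the CD8-depleted combination against the CTLA-4 combination, with an adjusted p of 0.0258, gray points did not pass the threshold, and open diamonds are the dual blockade difference, given with no test.

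Addition of APG-157 to a checkpoint antibody was compared next. Against anti-CTLA-4 alone, the CTLA-4 combination gave log2 differences of -1.72 for Saa3, -2.36 for Hp and -1.37 for Marco, with edgeR adjusted p of 0.434, 0.427 and 0.493. In this fit 1 gene of all was called there, 0.00511%, but 596 with a replicate block, 953 with a filter at a mean of 1 CPM, 1148 without replicate B of the CD8-depleted combination, 2438 with the compared groups only and 2796 with DESeq2, none of them a member. Against anti-PD-1 alone, the PD-1 combination gave 0.58 for Saa3, 1.31 for Hp and 1.43 for Marco, each with an edgeR adjusted p of 1.00, and 0% of genes were called. Lcn2 was at 4 counts in each anti-CTLA-4 library and at 3 and 0 counts in the CTLA-4 combination. The difference between the effects of APG-157 on the 2 antibodies was tested directly and was not called for any of the 4 genes, with edgeR adjusted p of 0.451 to 0.825. No gene of the whole table was called in that test.

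In the edgeR fit, CD8 depletion under the CTLA-4 combination was the tested pairwise comparison in which a member passed the threshold. Lcn2 was higher in the CD8-depleted combination than in the CTLA-4 combination, with 15 and 15295 counts against 3 and 0, a ratio of summed counts of 5378 (95% exact binomial interval 1840 to 26083, counting error only). The fitted log2 difference was 12.58 (SE 2.80, edgeR adjusted p = 0.0258), a size that depends on the prior count because the reference group is so low. The reference libraries were unusually alike (coefficient of variation 4.23%). For this group the paper describes a small resected tumor from the treatment experiment, used for flow cytometry and tissue staining. It also reports tissue staining, flow cytometry and a western blot of tumor from this group in the depletion experiment. Whether both libraries came from the same tumor is not stated, so the p-value may not measure variation between tumors. Summed to 1 library, they gave a log2 difference of 12.52, and Lcn2 was not called. In this comparison 19.0% of all tested genes were called, 10.8% higher and 8.18% lower, so 1 called gene of 4 is read against that share. Hp stood 5.97 higher (SE 1.94, edgeR adjusted p = 0.0503) and Saa3 3.78 higher (SE 1.32, edgeR adjusted p = 0.0602), while Marco was at 2.56 and 3.24 CPM against 5.49 and 5.45 CPM (log2 difference -0.92, SE 1.11, edgeR adjusted p = 0.570).

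The Lcn2 call rested on few libraries. Without replicate B of the CD8-depleted combination Lcn2 was not called, in a fit that called few genes of the whole table. The log2 difference was then 3.09 (SE 1.57), a value that assumes that the lone library varies as libraries of the other groups do. The remaining 15 counts against 3 give a ratio of 8.87 (95% exact binomial interval 2.51 to 47.8, counting error only). The call was also lost, with an edgeR adjusted p of 0.189 or 0.190, when replicate A or B of the CTLA-4 combination was left out, although the fitted log2 difference against replicate A alone was still 11.73, and replicate B alone has 0 counts. The number of called genes was then 2, of 21991 or 21992 tested, in place of 3722 of 19567. Without replicate A of the CD8-depleted combination, Saa3 and Hp were called as well, in a fit that called 8939 of 21969 genes. Over the 8 groups other than control and dual blockade, a test of any difference called Lcn2 (edgeR adjusted p = 0.0385) among 181 genes, 0.925% of those tested, and Saa3, Hp and Marco had adjusted p of 0.217, 0.250 and 0.279. Without replicate B of the CD8-depleted combination that test called no gene at all (Lcn2 edgeR adjusted p = 0.617). It also called 0 genes with a replicate block or with the compared groups only.

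The adipocyte, hepatocyte and neutrophil marker sums were highest in replicate B of the CD8-depleted combination. The adipocyte hormone gene Adipoq reached 355 CPM there against at most 3.03 CPM elsewhere, and the milk and neutrophil protein gene Ltf reached 563 CPM against at most 1.68 CPM. Ltf made up most of the neutrophil marker sum of 615 CPM, while Ly6g was at 0.761 CPM. The hepatocyte marker sum of 244 CPM was almost all Cyp2e1, at 243 CPM, with Alb at 0.444 CPM and Ttr and Apoc3 at 0 counts in every library. Across the 4 libraries of this comparison, epidermis markers summed to 7.57 and 6.26 CPM after CD8 depletion against 1.04 and 1.06 CPM. Fibroblast markers summed to 5040 and 5333 CPM against 3054 and 2913 CPM, and squamous epithelium markers to 1935 and 1421 CPM against 2246 and 2184 CPM. Krt8 and Krt18 made up most of the squamous sum, so it can be lower while other markers of that list are called higher. Called, all higher, were 10 of 12 adipocyte, 3 of 4 epidermis, 5 of 10 fibroblast, 4 of 9 squamous, 2 of 10 neutrophil and 1 of 1 hepatocyte markers, while 3 of 12 macrophage markers were called lower. Of all genes 19.0% were called in this comparison, and the neutrophil and macrophage shares lie near that. The part of these cells in the levels of Saa3, Lcn2 and Hp was not tested.

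Genes with the most similar pattern over the 20 libraries were sought for each member by Pearson's r of log2(CPM + 0.1), as a description. For Hp they were Cfd (r = 0.93), Cidec (0.89), Plin4 (0.89), Adipoq (0.88) and Mup9 (0.88). Cfd encodes the adipokine adipsin, and Cidec and Plin4 encode lipid droplet proteins. Over the 19 libraries without replicate B of the CD8-depleted combination these values for Hp were 0.81 to 0.91, and Cfd, Cidec, Adipoq and Plin4 stayed among its 5 most similar genes. For Lcn2 they were Vwa3b, Ankef1, Tmem54, Cldn10 and Lgals12, each at 0.97, which fell to between 0.57 and 0.69 over the 19 libraries. For Saa3 they were Gm30054 (0.90), Plac8 (0.87), Serpinb1b (0.87), A530010L16Rik (0.85) and Gm34425 (0.83), of which Plac8 alone exceeded 2 CPM in any library. Over the 19 libraries Gm30054 and Plac8 stayed among the 5 most similar. For Marco they were Acap1 (0.91), AA467197 (0.91), Prkcq (0.88), Krt16 (0.88) and S1pr4 (0.88). Prkcq encodes a kinase of T cell receptor signaling, and S1pr4 a sphingosine receptor of lymphocytes. Over the 19 libraries their r was 0.89 and 0.88, but only Acap1 and AA467197 stayed among the 5 most similar.

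Among the 4 genes themselves, Saa3 and Marco varied together with r = 0.68 (0.72 over the 19 libraries), and Lcn2 and Hp with r = 0.70 (0.62). Saa3 and Marco were both picked for their difference between control and dual blockade. Those libraries are in both values of r, so the choice itself favors a positive r for this pair. The other 4 pairs had r between 0.05 and 0.46. All these values share libraries and scaling and carry no test.

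**Figure D3:**
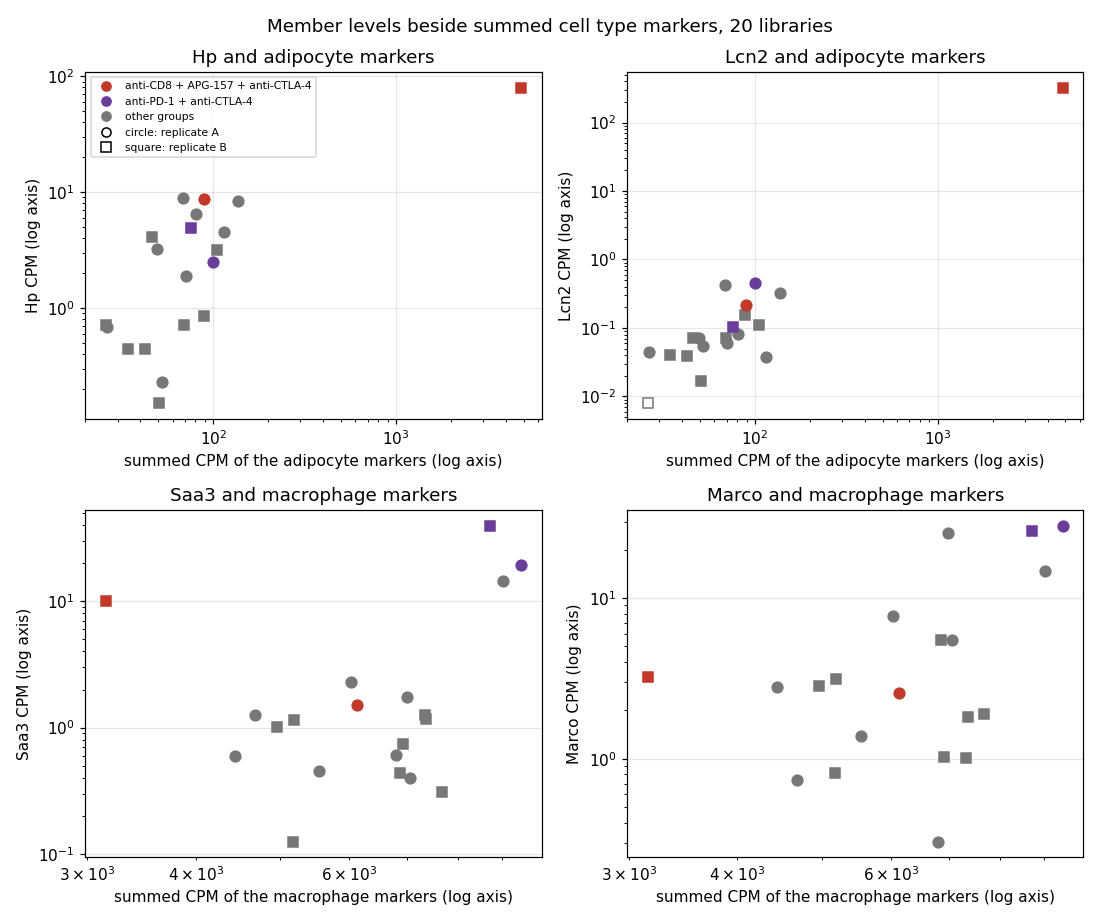
Hp and Lcn2 against the summed adipocyte markers, and Saa3 and Marco against the summed macrophage markers, in CPM on log axes, 1 point per library. Replicate B of the CD8-depleted combination (red square) is far to the right for adipocyte markers, at 4830 CPM, and far to the left for macrophage markers, at 3156 CPM, and an open symbol marks 0 counts.

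Other acute-phase proteins were read from a list of 29 genes, 15 of which passed the filter. None of the 15 was called in any comparison other than CD8 depletion under the CTLA-4 combination, where 6 were called, all higher, a share of 40.0% beside 19.0% of all genes. The median log2 difference of the 15 was 1.67, also with the gene at 0 in the reference group set to its bound, against 0.09 over all genes. Lbp, which hands bacterial lipopolysaccharide to Cd14, was at 3.81 and 106 CPM against 0.0589 and 0.146 CPM, with control at 1.45 and 1.69 CPM (log2 difference 9.07, SE 1.91, edgeR adjusted p = 0.0252). Lrg1 rose by 6.03 (SE 1.28, edgeR adjusted p = 0.0252) and Serpina3n, a protease inhibitor, by 4.40 (SE 1.14, edgeR adjusted p = 0.0296) on the log2 scale. Orm1, an acid glycoprotein, had 0 counts in both libraries of the CTLA-4 combination and was at 0.289 and 33.2 CPM after CD8 depletion (edgeR adjusted p = 0.0349). Ptx3 and Hpx, which binds free heme, were the other called genes. Without replicate B of the CD8-depleted combination the median was -0.17. The log2 differences were then 5.22 for Lbp, 4.17 for Lrg1, 3.26 for Serpina3n and 4.69 for Ptx3. Few genes of the whole table were called in that fit, so calls in this list are not read from it. Of the 14 listed genes that did not pass the filter, Orm3 (1.99 CPM), Itih4 (0.550 CPM), Orm2 (0.508 CPM) and Itih3 (0.211 CPM) were highest in replicate B of the CD8-depleted combination, Apcs had 0 counts in every library, and the other 9, among them Crp, Fga, Fgb, Fgg and Hamp, stayed at or below 0.0846 CPM.

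**Figure D4:**
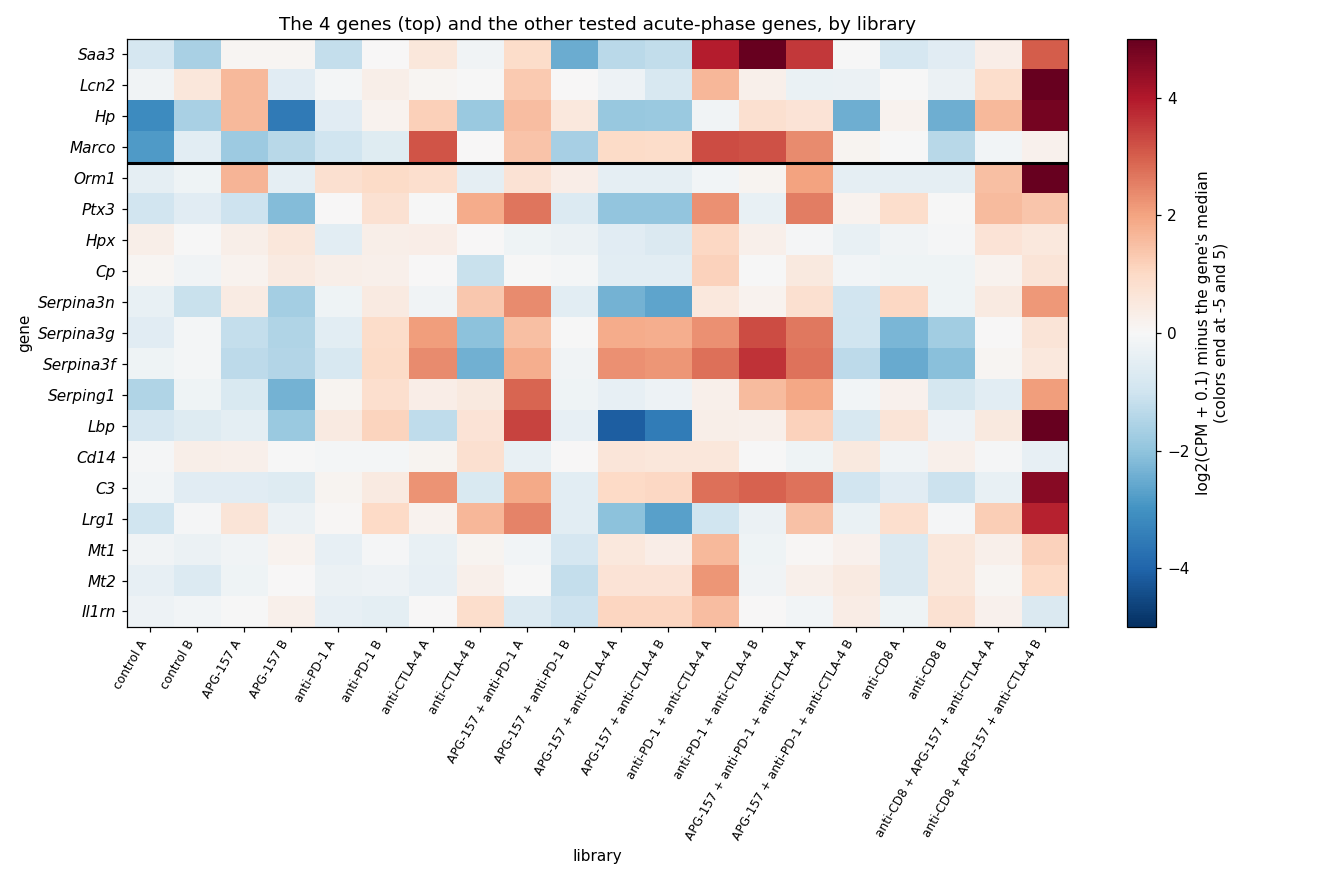
Log2(CPM + 0.1) of the 4 genes (above the line) and of the other 15 tested acute-phase genes in 20 libraries, each minus the gene's own median. Red is above and blue below the median. Replicate B of the CD8-depleted combination is red for Lcn2, Hp, Orm1, Lbp, C3 and Lrg1, and both libraries of the CTLA-4 combination are blue for Lbp and Lrg1.

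Of the cytokines that drive the response, Il6 lay between 0.0423 and 0.684 CPM, Il1b between 0.824 and 7.07 CPM, and Il17a and Il22 had 0 counts in every library. Csf3, which did not pass the filter, was at 6.22 CPM in replicate B of the CD8-depleted combination and at most 0.183 CPM elsewhere. The receptor gene Il22ra1, also below the filter, was at 2.07 CPM there and had 0 counts in the other 19 libraries. Of the receptor genes, Il6st, the shared receptor of the interleukin-6 family, averaged 199 CPM, the TNF receptor gene Tnfrsf1a 112 CPM and Il6ra 66.7 CPM. Of 15 tested genes among the inducing cytokines and their receptors, 1 was called, Tnf, which fell by 1.81 on the log2 scale (SE 0.34, edgeR adjusted p = 0.0252) in CD8 depletion under the CTLA-4 combination. Its levels were 4.05 and 2.07 CPM against 10.8 and 10.6 CPM, with control at 3.03 and 4.49 CPM. Of 14 transcription regulators, 2 were called in the same comparison, both lower. These shares, 6.67% and 14.3%, do not exceed the 19.0% of all genes. The regulators were Socs3, a feedback inhibitor of STAT3 (-0.84, SE 0.24, edgeR adjusted p = 0.0339), and the NF-kappaB subunit gene Nfkb1 (-0.77, SE 0.18, edgeR adjusted p = 0.0269).

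Receptors and partners of the proteins numbered 18, all tested, and 8 were called in CD8 depletion under the CTLA-4 combination, 44.4% against 19.0% of all genes. Higher were Slc22a17, a lipocalin-2 receptor (log2 difference 4.20, SE 0.85, edgeR adjusted p = 0.0252), the haptoglobin-hemoglobin receptor Cd163 (2.12, SE 0.67, edgeR adjusted p = 0.0444), the iron exporter Slc40a1 (5.99, SE 1.19, edgeR adjusted p = 0.0252) and Ltf. Lower were Tlr2, Tlr4, P2rx7 and Lrp1, by 0.73 to 1.26. Cd163 was the only one of the higher genes whose level in replicate A, 12.2 CPM, exceeded that in replicate B, 4.65 CPM, and the CTLA-4 combination, the lowest group, held 1.78 and 2.10 CPM beside 9.77 and 12.1 CPM in control. In the test of any difference among 8 groups, 1 of the 18 was called, Ltf (edgeR adjusted p = 0.0385).

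Scavenger receptors other than Marco numbered 20, all tested, and 4 were called in CD8 depletion under the CTLA-4 combination, a share near the 19.0% of all genes. Scara5, a ferritin receptor, and Cd163 were higher, and Msr1, another class A scavenger receptor, and Cd68 were lower. Msr1 was at 289 and 155 CPM against 586 and 616 CPM, with control at 302 and 249 CPM (log2 difference -1.44, SE 0.31, edgeR adjusted p = 0.0252). Without replicate B of the CD8-depleted combination, Msr1 stood at -1.05, in a fit that called few genes of the whole table. No gene of the lists of cytokines, regulators, receptors, partners or scavenger receptors was called in any other pairwise comparison of the main fit.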

How the data were processed

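Tumor RNA was sequenced from 20 libraries, and the deposited table holds estimated counts per gene that the authors made with Trimmomatic 0.39 and Salmon (1.5.0 per the submitters' notes) on GENCODE vM27 (GRCm39) and summed to genes with tximeta. A deposited log2 table was not used. Counts were rounded and genes named by Ensembl ID. One model was fitted over all libraries with edgeR 4.0.16 in R 4.3.3 (TMM factors, a minimum count of 10 and minimum total of 15, robust quasi-likelihood test), and p-values were adjusted by Benjamini-Hochberg over 19567 genes. A gene was called at an adjusted p below 0.05 with no fold minimum. Members and lists were chosen with earlier results of these data known. Named genes were the 4 members, up to 4 called genes of each list (by number of calls, then smallest p; with fewer than 2 calls, the 3 with the highest mean CPM) and the 5 most similar genes per member. Other genes named were added after their values were seen. Stretches of 31 bases were compared with GENCODE vM21 transcripts. The fit was tested on simulated data with the same spread in every group and no outlying library. It was not tested for groups as unequal in spread as these. Alternatives were DESeq2 1.42.0, RLE factors, other filters, a fold minimum, a replicate block, fits of the compared groups only, summed APG-157 + anti-CTLA-4 libraries, and each library left out. The common coefficient of variation was 38.7%.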

Additional observations from a re-analysis of the deposited data

How the results depend on the processing

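For CD8 depletion under the CTLA-4 combination, where 1 of the 4 genes was called among 3722 of 19567, 2 were called with a filter at a mean of 1 CPM (3155 of 14057 genes called in all), 2 with the replicate block (3687 of 19567), 3 with DESeq2 (6228 of 20535), 0 when only the compared groups were fitted (0 of 17776) and 0 when the 2 alike libraries of the CTLA-4 combination were summed (2 of 21987). Leaving out 1 library gave 0 to 3, with 2 to 8939 genes called in all. Against control, the CD8-depleted combination gave 0 (2 of 19567), 3 with DESeq2 (1677 of 20535), and 0 to 3 with 1 library left out, the 3 coming without its replicate A (6632 of 21969). The test over 8 groups called 1 member (181 of 19567), 0 with the replicate block, 0 with the compared groups only and 0 with the summed libraries, where 0 genes were called in all, and 0 to 1 with 1 library left out, the 1 coming without replicate A of the CD8-depleted combination (4739 of 21969). The letters A and B were not taken to pair the libraries: of 45 correlations of the A and B differences between groups, from -0.38 to 0.71 (median 0.02), 13 were over 0.1. Fits that leave out a library assume that a lone library varies as the other groups do, and they test more genes.

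With 2 libraries per group, leaving out 1 turned the sign of 21 of 44 fitted log2 differences, none of which had passed the threshold. For Saa3 the ranges were -0.02 to 1.38 (anti-PD-1), -1.84 to 2.34 (PD-1 combination), -0.55 to 0.42 (CTLA-4 combination), all against control, and -2.65 to 1.53 (PD-1 combination against anti-PD-1). For Lcn2 they were -2.43 to 2.05 (APG-157), -0.85 to 0.64 (anti-PD-1), -1.01 to 0.46 (anti-CTLA-4), -0.49 to 1.85 (PD-1 combination), -1.46 to 0.03 (anti-CD8), and -0.22 to 1.92 (PD-1 combination against anti-PD-1). For Hp they were -1.78 to 4.28 (APG-157), -0.29 to 1.57 (CTLA-4 combination), -0.24 to 3.42 (triple combination), -0.25 to 2.96 (anti-CD8), and -3.18 to 0.01 (CTLA-4 combination against anti-CTLA-4). For Marco they were -1.09 to 1.52 (APG-157), -0.25 to 2.38 (anti-PD-1), -0.43 to 3.83 (PD-1 combination), -0.07 to 2.64 (anti-CD8), -0.96 to 2.31 (PD-1 combination against anti-PD-1), and -2.19 to 0.98 (CTLA-4 combination against anti-CTLA-4). Other scalings moved CPM by 0.960 to 1.04 times. The cause of these changes was not tested. Counts were lowest for Lcn2, with a median of 4 per library.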
